A study of Saccharomyces cerevisiae with 6 samples.

Results

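The genes described here encode 59 ribosome biogenesis factors of budding yeast (Saccharomyces cerevisiae), proteins that help to build ribosomes without becoming part of them. They were taken by gene symbol from a list, out of 5656 genes that the array annotation names with 1 symbol on at least 1 probe set. All 59 had a probe set. Where a gene had several, as 5 members did, the probe set with the highest mean signal over the arrays stood for it. The tests used 51 members, since 8 fell among the 25% of probe sets with the lowest mean log2 value. These 8 are described from a fit without that filter.

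Ribosomes are built in the nucleolus, where RNA polymerase I makes a long precursor of ribosomal RNA. Small nucleolar ribonucleoproteins (snoRNPs) modify this precursor, helicases reshape it, nucleases cut it, and assembly factors and GTPases steer the particles of the small and the large subunit towards the cytoplasm. In yeast the genes of these factors are known as a group whose transcripts are abundant in fast growth and scarce under stress or lack of nutrients, under the control of the TOR and protein kinase A pathways.

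Yeast was cultured in YPD (a rich medium containing glucose; 30 °C, 250 rpm) until the optical density reached 1.0. A further 6 h followed, either in the presence of azinomycin B, which is a bacterial product known to form DNA cross-links, or as a control. The series asked how stress states at 100 and 10 µg/ml compare with control growth, and the labels give an ED50 of 10 µg/ml. It holds 6 arrays: 2 of cells given 100 µg/ml in a little ethanol with 2 controls, labelled A100 and B100, and 1 of cells given 10 µg/ml in a little ethanol with 1 control, labelled 10. The labels name neither the strain nor ethanol in the controls, and do not say whether each array had its own culture, and p-values thus reflect the spread between these 6 arrays, which may be technical.

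Each array gives 1 MAS5 signal per probe set, and the deposited values already share a common level, with a 2% trimmed mean of 500.3 to 500.4 on every array. A lower signal is therefore a lower share of the RNA hybridised, and less RNA per cell cannot be told apart from it. Median signals were between 112 and 143.9, and 15.2% to 18.2% of signals were under 16. For the actin gene ACT1, the signal of the 3′ probe set over that of the 5′ probe set, a ratio that grows in degraded RNA, was 2.09 and 1.44 on the treated A100 and B100 arrays, 1.69 and 2.05 on their controls, and 1.78 and 1.85 on the treated and control arrays labelled 10. The treated A100 array stood apart from the other 3 arrays of its label number: it correlated with them at r = 0.906 to 0.932 over the 6956 probe sets tested, while these 3 correlated with each other at 0.979 to 0.980. The arrays labelled 10 correlated with each other at 0.970 and with the 4 others at 0.891 to 0.919. The treated A100 array also holds a cluster of low values. Of the 33 probe sets at which it lay over 4-fold below all of the others, 28 have numbers from 7600 to 8500, a range with 10.8% of the probe sets tested and 7 members.

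The main difference among the members was between the array labels. Each of the 51 members tested had a lower mean log2 signal on the 4 arrays labelled A100 or B100 than on the 2 labelled 10, where 51.2% of all probe sets tested had a negative difference. The median difference of the members was -1.38 (log2, A100 and B100 arrays minus arrays labelled 10), against -0.02 over all probe sets. With limma and Benjamini-Hochberg adjustment over all 6956 probe sets, 20 members were lower and 0 higher at an adjusted p under 0.05, while 4.53% of all probe sets were lower and 4.84% higher. This fit had no treatment term, so any difference between treated and control arrays of a label number counted as spread. At an unadjusted p under 0.05, 41 members were lower and 0 higher, against 14.7% and 14% of all probe sets. At 41 members all 4 A100 and B100 arrays lay below both arrays labelled 10, as did 19.6% of all probe sets. No member had all 4 above both, where 18.9% of all probe sets did. After quantile normalization or scaling to a common median, 49 of the 51 differences were negative, UTP7 and UTP22 having turned slightly positive. Without the filter all 59 members had a negative difference. The 8 under the filter (UTP4, UTP6, UTP9, UTP15, SPB1, NOP7, NOP12 and MAK16) lay between -1.39 for NOP7 and -0.43 for UTP9.

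**Figure D1:**
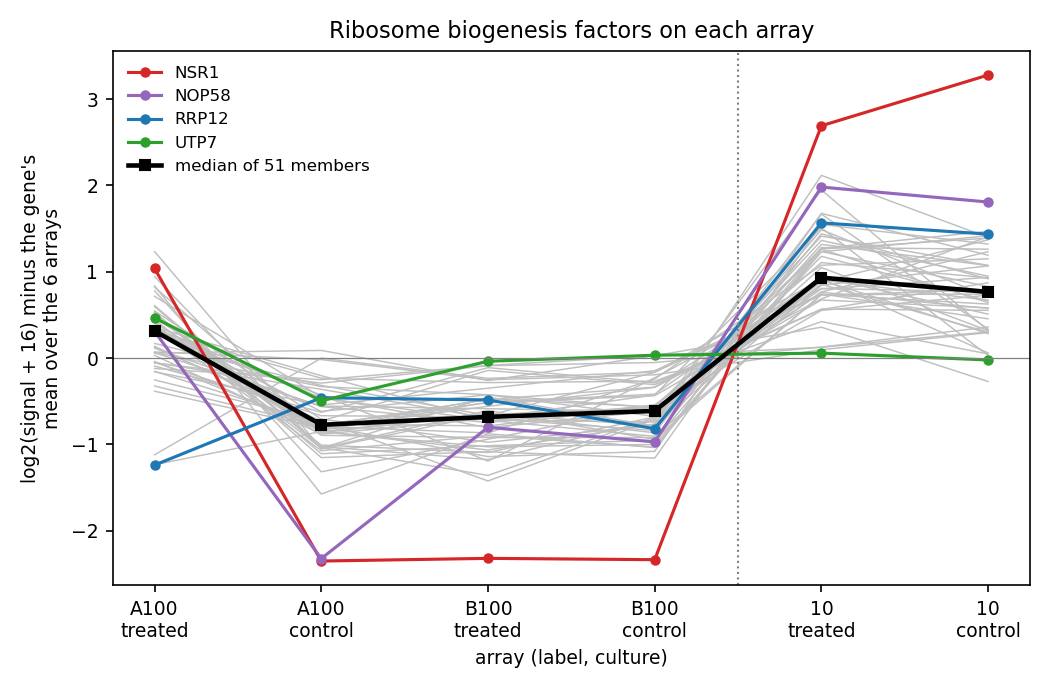
Log2(signal + 16) of each of the 51 members tested, minus the gene's mean over the 6 arrays (vertical axis), on each array (horizontal axis, treated left of control within each label). Grey lines are single genes and the black line is the median. The 2 arrays right of the dotted line, labelled 10, are highest, the treated A100 array lies between them and the other 3, and UTP7 is nearly level.

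The number of members past the threshold depended on which arrays were used. It was 37 when only the 3 control arrays were fitted, where 20.5% of all probe sets passed in either direction. It was 0, like that of all probe sets, when only the 3 treated arrays were, and 17 members were then lower at an unadjusted p under 0.05, against 8.05% of all probe sets in either direction. Without the treated A100 array 45 members and 30.2% of all probe sets passed, and without the treated B100 array 2 members and 1.37%. Without the A100 control 8 members and 2.88% passed, and without the B100 control 7 members and 3.28%. Without the treated array labelled 10 it was 2 members and 0.891%, and without its control 1 member and 0.446%. The median difference stayed between -1.57 and -1.17 when 1 array was left out. It was -1.39 with the 3 control arrays only and -1.19 with the 3 treated arrays only, with 50 of 51 members negative in each. Both of these fits set 2 arrays against 1. The labels do not say what else differed between the cultures labelled 100 and 10, so day, growth stage and any other such difference cannot be told apart from the label.

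The roles are taken in the order of the pathway. Box C/D snoRNPs, which guide methylation of ribosomal RNA, are represented by the methyltransferase NOP1 and the scaffold proteins NOP56 and NOP58. NOP58 (YOR310C) had signals of 383.7 and 169.0 on the treated A100 and B100 arrays and 48.5 and 148.6 on their controls, against 1258.6 and 1114.4 on the treated and control arrays labelled 10. Its 2 groups did not overlap, and it was lower by label with a log2 difference of -2.84 (SE 0.598, limma adjusted p = 0.0252). Its other tested probe sets gave -1.50 and -1.78, and the call was lost on the probe set at -1.78, which is the one without a suffix (adjusted p = 0.0592). NOP1 (-1.55, adjusted p = 0.0969) and NOP56 (-0.87, adjusted p = 0.224) did not pass.

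Box H/ACA snoRNPs, which guide pseudouridine formation, hold the pseudouridine synthase CBF5 and the small proteins GAR1 and NHP2. NHP2 (YDL208W) had 798.4 and 432 on the treated A100 and B100 arrays and 493.2 and 500.3 on their controls, against 1295.3 and 1421.5 on the treated and control arrays labelled 10. It was lower by label with a difference of -1.30 (SE 0.269, limma adjusted p = 0.0240), again with no overlap between the groups. CBF5 (-1.53) and GAR1 (-1.43) did not pass, at adjusted p = 0.0986 and 0.0659, although their groups did not overlap either.

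The small subunit processome is the large particle that forms on the fresh precursor. Its UTP-A subcomplex binds first, and its members UTP4, UTP5, UTP8, UTP9, UTP10 and UTP15 gave low signals, so that 3 of the 6 were under the filter. UTP10 (YJL109C) had 146.1 and 39.8 on the treated A100 and B100 arrays and 48.9 and 52.8 on their controls, against 311.3 and 175.8 on the treated and control arrays labelled 10. The lowest of the 10-labelled signals was above all of the others, yet its difference of -1.65 did not pass (SE 0.448, adjusted p = 0.0559). UTP5 (-1.38) and UTP8 (-1.18) did not pass either. In the UTP-B subcomplex, UTP21 (YLR409C) had 107.3 and 46.1 on the treated A100 and B100 arrays and 36 and 49.7 on their controls, against 125.7 and 117.1 on the treated and control arrays labelled 10. The treated A100 signal of UTP21 came close to those of the arrays labelled 10, and its difference of -0.94 did not pass (adjusted p = 0.123). UTP13 was at -1.18 (adjusted p = 0.0650).

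NSR1, a nucleolar protein related to nucleolin that binds ribosomal RNA and nuclear localisation signals, had the largest label difference of all members. NSR1 (YGR159C) had 176.9 and 2.8 on the treated A100 and B100 arrays and 2.4 and 2.6 on their controls, against 590.9 and 896.2 on the treated and control arrays labelled 10. Among the arrays labelled A100 or B100 it was thus near zero on 3 and well above it on the treated A100 array, still under both arrays labelled 10. Its label difference was -4.48 (SE 0.916, limma adjusted p = 0.0238). Differences at such low signals depend on the pseudocount of 16, and with 1 it was -6.26 and with 64 it was -3.11. The call of NSR1 was lost when any array but the treated A100 one was left out (adjusted p between 0.0619 and 0.173).

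With NSR1, RRP12, RRP5 and NOP14 made up the 4 of 11 other processome members that were lower by label. RRP12, an export factor for both subunits, had 6.7 and 22.3 on the treated A100 and B100 arrays and 23.0 and 14.4 on their controls, against 142.8 and 129.1 on the treated and control arrays labelled 10 (difference -2.25, SE 0.280, limma adjusted p = 0.00634). Its treated A100 signal, the lowest of the 6, comes from the range of probe sets with clustered low values, and the part of this cluster in the value was not tested. RRP5, which is needed for the cuts that yield both subunits, had 126.8 and 69.9 on the treated A100 and B100 arrays and 59.8 and 62.1 on their controls, against 332.1 and 277.6 on the treated and control arrays labelled 10 (-1.79, SE 0.305, limma adjusted p = 0.0152). Both genes were separated by label on every array. NOP14 was at -1.27 (adjusted p = 0.0250), and FCF2 (-1.50), UTP20 (-1.15), RRP9 (-1.11) and UTP14 (-0.73) did not pass.

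A few processome genes were nearly level. UTP7 had 118.6 and 79.1 on the treated A100 and B100 arrays and 53.2 and 83.8 on their controls, against 85.5 and 80.1 on the treated and control arrays labelled 10, a difference of -0.027 (SE 0.289, adjusted p = 0.962). UTP22 was at -0.064 (SE 0.258, adjusted p = 0.895) from signals of 33 to 59.8 on the 6 arrays. Both sets of arrays overlap for these genes. The 5 other probe sets of UTP22 gave differences of -0.23 to -0.70, of which 1 was above the filter (-0.69), so this gene's value differs between probe sets. FCF1, the nuclease-like protein that acts with the processome, had 409.3 and 400.0 on the treated A100 and B100 arrays and 345.7 and 410.7 on their controls, against 467.2 and 551.6 on the treated and control arrays labelled 10. The sets of FCF1 did not overlap, but the difference was small at -0.37 (SE 0.202, adjusted p = 0.274).

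DEAD-box helicases remodel the precursor RNA and free bound snoRNAs. Of the 12 measured and tested, 4 were lower by label: RRP3 (-1.99), HAS1 (-1.77), ROK1 (-1.50) and DBP10 (-0.90), with limma adjusted p = 0.0245, 0.0354, 0.0185 and 0.0497. RRP3 had 116.8 and 39.6 on the treated A100 and B100 arrays and 33.3 and 34.7 on their controls, against 227.7 and 261 on the treated and control arrays labelled 10. Only the treated A100 array left the narrow band of the other 3 in RRP3. DBP2 had 580 and 150.3 on the treated A100 and B100 arrays and 106.6 and 115.9 on their controls, against 406 and 374.8 on the treated and control arrays labelled 10. For DBP2 the treated A100 signal was thus the highest of all 6, and the label difference of -1.02 did not pass (SE 0.592, adjusted p = 0.296). Its second probe set gave -1.96, with 215.2 on the treated A100 array and 308.9 and 303.5 on the treated and control arrays labelled 10, so on that probe set the treated A100 array was not the highest. DBP7 (-0.29) and DBP8 (-0.35) had the smallest values of the family and did not pass. DBP7 had 39.4 and 28.3 on the treated A100 and B100 arrays and 36.1 and 30.1 on their controls, against 40.4 and 48.7 on the treated and control arrays labelled 10. DBP8 had 123 and 75.8 on the treated A100 and B100 arrays and 79.1 and 76.9 on their controls, against 133.9 and 99.6 on the treated and control arrays labelled 10. In DBP8 the treated A100 signal lay between the 2 arrays labelled 10, so the sets overlap.

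**Figure D2:**
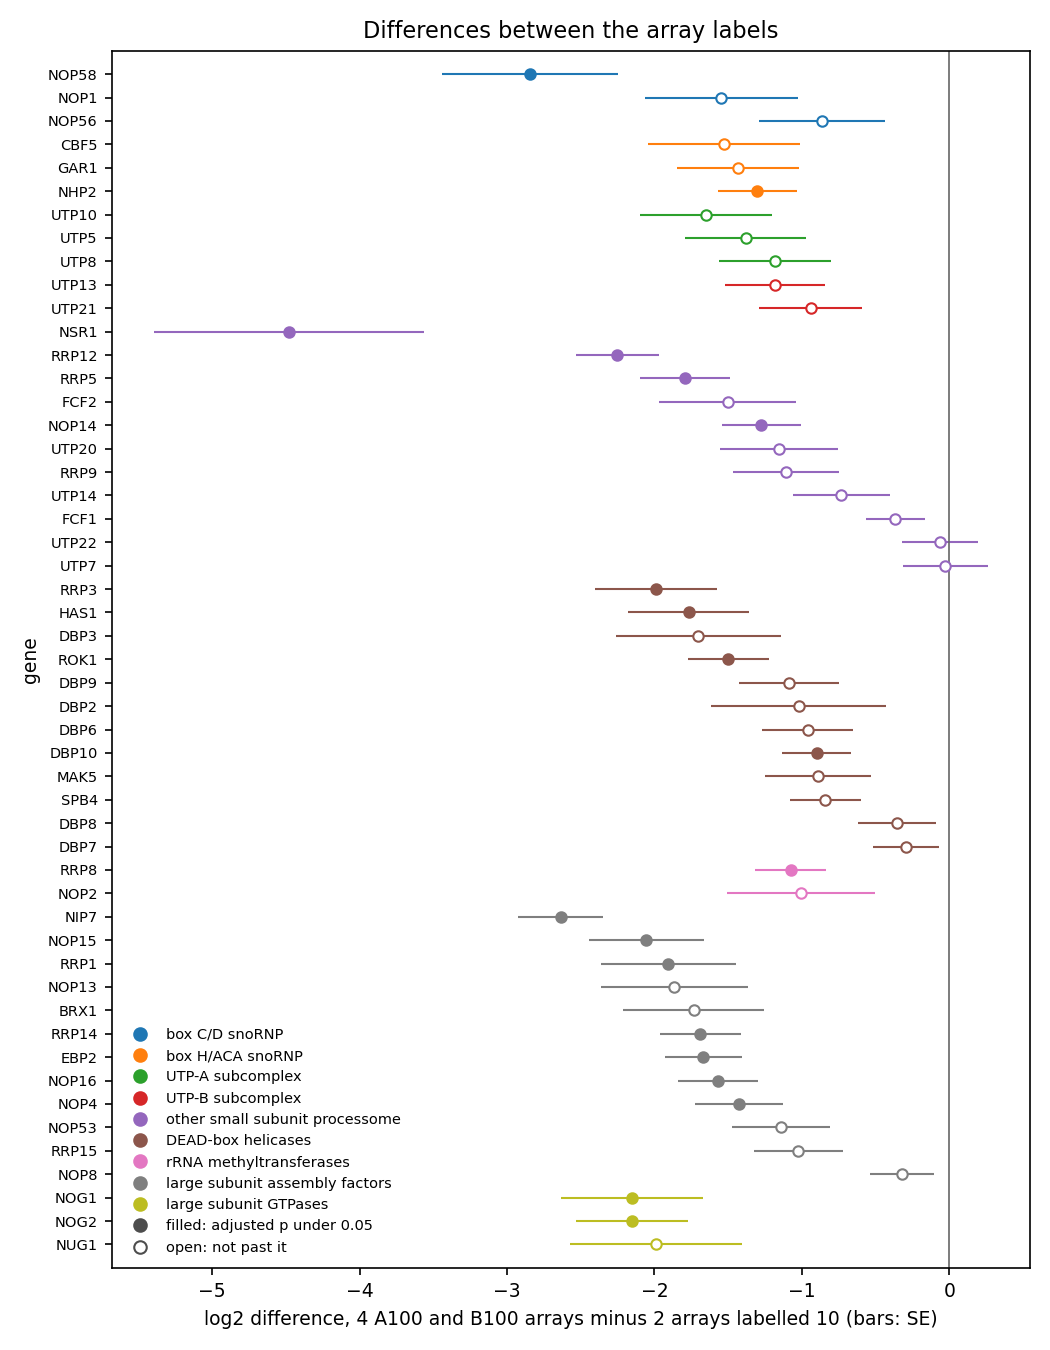
Log2 difference of the 4 A100 and B100 arrays minus the 2 arrays labelled 10 (horizontal axis, bars are SE) for each of the 51 members tested (vertical axis), coloured and grouped by role. Filled circles mark the 20 members at an adjusted p under 0.05. All differences are below 0, from -4.48 for NSR1 to -0.027 for UTP7.

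Among the enzymes that modify ribosomal RNA bases or riboses in the large subunit, the methyltransferase RRP8 was lower by label. RRP8 had 291.7 and 316.2 on the treated A100 and B100 arrays and 205.0 and 280.3 on their controls, against 525.7 and 655.3 on the treated and control arrays labelled 10 (difference -1.08, SE 0.242, limma adjusted p = 0.0310). Its treated A100 signal lay within the range of the other arrays labelled A100 or B100. NOP2 did not pass (adjusted p = 0.230) and had its highest signal, 363.8, on the treated A100 array, against 318.7 and 278.1 on the treated and control arrays labelled 10.

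The assembly factors of the large subunit held 7 of the 20 members past the threshold. These were NIP7 (-2.64), NOP15 (-2.05), RRP1 (-1.91), RRP14 (-1.69), EBP2 (-1.67), NOP16 (-1.57) and NOP4 (-1.43). All 12 of those tested had their 4 A100 and B100 signals below both signals of the arrays labelled 10. So did 41 of all 51 members tested and 19.6% of all probe sets. NIP7, an RNA-binding protein of early precursors, had 6.6 and 17.9 on the treated A100 and B100 arrays and 13.5 and 15.0 on their controls, against 214.8 and 124.2 on the treated and control arrays labelled 10 (SE 0.286, limma adjusted p = 0.00376). It too lies in the range of clustered low values, though all 4 of its A100 and B100 signals were low. NOP15, which binds the internal spacer of the precursor, had 135.3 and 35.7 on the treated A100 and B100 arrays and 67.7 and 68.7 on their controls, against 318.9 and 367.9 on the treated and control arrays labelled 10 (SE 0.391, limma adjusted p = 0.0206). The spread of NOP15 was wide within the labels A100 and B100, with no overlap with the arrays labelled 10. RRP1 had 111.0 and 27.4 on the treated A100 and B100 arrays and 24.7 and 29.4 on their controls, against 197.3 and 194.5 on the treated and control arrays labelled 10. NOP13 (-1.87, adjusted p = 0.0536) and BRX1 (-1.73, adjusted p = 0.0583) missed the threshold by little, and NOP8 (-0.32, adjusted p = 0.363) was far from it. NOP13 had 167.9 and 31.4 on the treated A100 and B100 arrays and 43.3 and 59.4 on their controls, against 307.9 and 240.1 on the treated and control arrays labelled 10. NOP8 had 56.9 and 58.7 on the treated A100 and B100 arrays and 50.6 and 64.8 on their controls, against 70.4 and 81.8 on the treated and control arrays labelled 10. Its 4 lower signals lie close to the 2 higher ones, unlike those of NOP13.

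The GTPases that act on nuclear precursors of the large subunit had differences of -2.15 for NOG1, -2.15 for NOG2 and -1.99 for NUG1, with 2 of the 3 past the threshold. NOG1 had 269.5 and 77.3 on the treated A100 and B100 arrays and 73.0 and 72.6 on their controls, against 563 and 478.6 on the treated and control arrays labelled 10 (SE 0.481, limma adjusted p = 0.0307). NOG2 had 204.1 and 74.7 on the treated A100 and B100 arrays and 100.3 and 78.6 on their controls, against 624 and 441.2 on the treated and control arrays labelled 10 (SE 0.382, limma adjusted p = 0.0169). NUG1 had 471.9 and 132.8 on the treated A100 and B100 arrays and 75.7 and 117.3 on their controls, against 640.3 and 700.3 on the treated and control arrays labelled 10. NUG1 did not pass (SE 0.581, adjusted p = 0.0669). In each of these genes the treated A100 array stood between the other 3 arrays of its label number and the arrays labelled 10.

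That intermediate position of the treated A100 array was common. At 41 of the 51 members its signal was above those of the other 3 arrays labelled A100 or B100, as it was at 39.8% of all probe sets tested. At 32 members it was above these 3 and below both arrays labelled 10, where 9.43% of all probe sets had that order. That order can arise only where all 4 A100 and B100 arrays lie below both arrays labelled 10. This held at 41 members and 19.6% of all probe sets, so the order in part restates the label difference. The median log2 signal of the members was 7.10 and 6.17 on the treated A100 and B100 arrays and 6.06 and 6.29 on their controls, against 8.05 and 7.58 on the treated and control arrays labelled 10. The treated B100 array, which had the same dose, had a median within the range of the 2 controls of its label number. The median of all probe sets moved far less, between 8.01 and 8.20 on the 6 arrays.

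**Figure D3:**
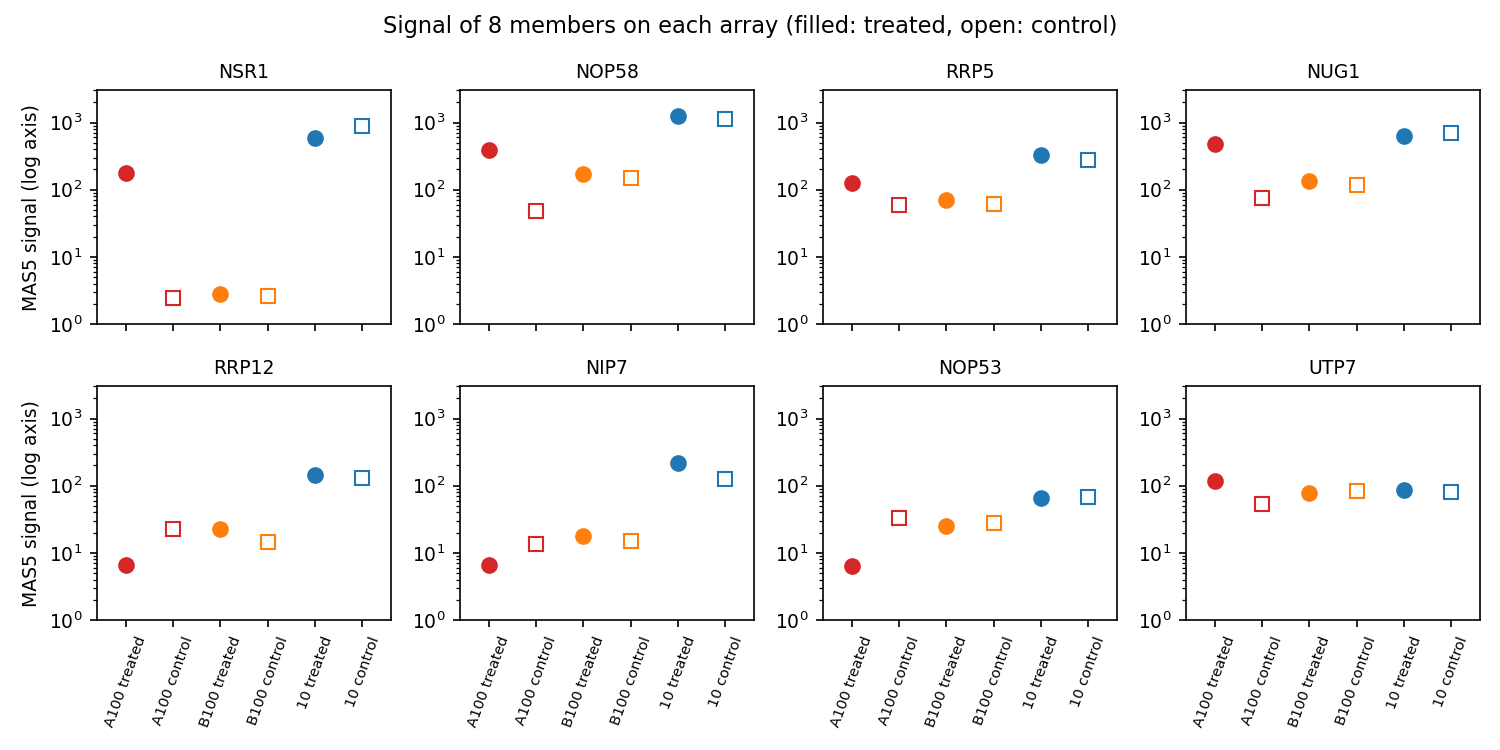
MAS5 signal on a log axis (vertical) on each array (horizontal) for 8 members, treated as filled circles and control as open squares, coloured by label. NSR1, NOP58, RRP5 and NUG1 have an intermediate treated A100 signal, RRP12, NIP7 and NOP53 have their lowest signal there, and UTP7 is nearly level. The probe sets of NOP58, RRP12, NIP7 and NOP53 lie in the range of clustered low values.

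The comparison of azinomycin B with control asks whether the drug moved these genes, and here the pairs of arrays differed. In the A100 pair 47 of the 51 members were higher on the treated array, against 51.6% of all probe sets, 22 were at least 2-fold higher, against 10.7%, and 1 (NOP53) was at least 2-fold lower, against 6.12%. The median was 0.91 (log2, treated minus control). In the B100 pair at the same dose 19 were higher, against 56.7% of all probe sets. None was at least 2-fold higher there, against 2.06%, and none at least 2-fold lower, against 0.661%. The median of that pair was -0.06. In the pair labelled 10, 34 were higher, against 57.9% of all probe sets, and 3 were at least 2-fold higher, against 2.1%, with a median of 0.17. Over the 3 pairs 11 of the 51 members were higher in each, against 22% of all probe sets, and 1 (NOP53) was lower in each, against 12.2%.

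**Figure D4:**
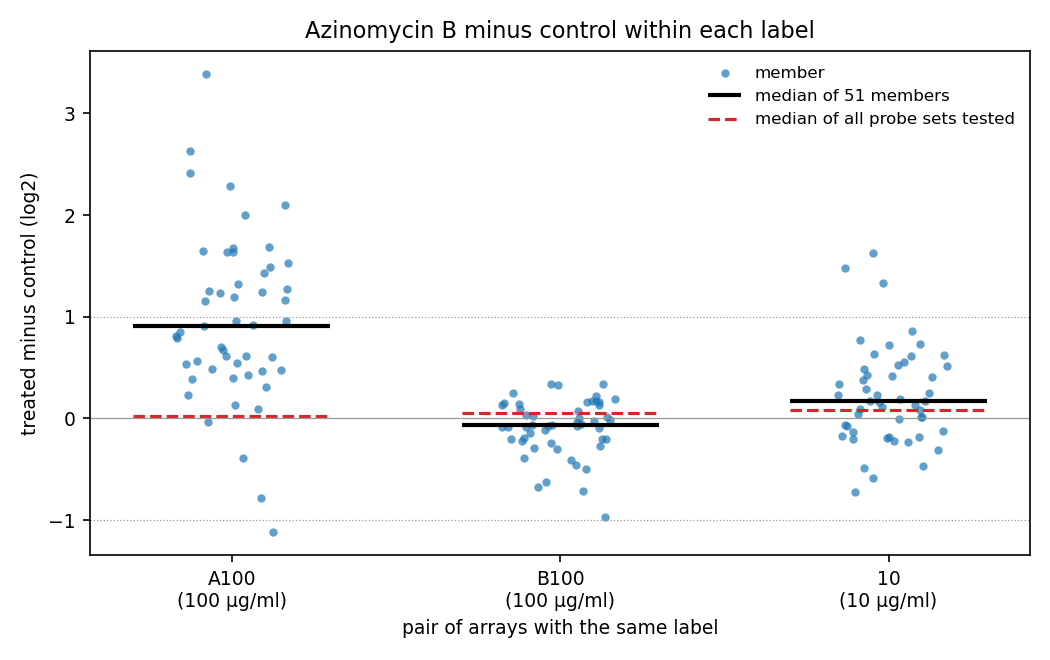
Treated minus control difference in log2(signal + 16) (vertical axis) for each of the 51 members in the 3 pairs of arrays with the same label (horizontal axis). Solid bars are medians of the members, 0.91, -0.06 and 0.17, and dashed bars those of all 6956 probe sets, and the dotted lines mark 2-fold. The A100 pair has 47 members above 0, the B100 pair 19 and the pair labelled 10 has 34.

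No member passed the test for azinomycin B. With limma, 0 members and 0% of all probe sets had an adjusted p under 0.05 for the mean of the 3 pair differences. That fit had the label number as a term and did not take A and B as pairs. The same held for 100 µg/ml against its own controls, for 10 µg/ml against its own control and for the difference between the doses. At an unadjusted p under 0.05, 2 members were higher over the 3 pairs (UTP5 and FCF2, against 5.46% of all probe sets). At 100 µg/ml none was higher or lower, against 4.23% and 1.88%. At 10 µg/ml 1 (UTP20) was higher and none lower, against 1.71% and 1.94%. UTP20 was also the only member with such a p for the difference between the doses, where 1.28% of all probe sets were lower. Negative differences were found for 10 of the 51 members over the 3 pairs, against 43.5% of all probe sets. At 100 µg/ml 44 were positive, against 54.8%, and at 10 µg/ml 17 were negative, against 42.1%. The members' medians were 0.42 over the 3 pairs, 0.44 at 100 µg/ml and 0.17 at 10 µg/ml, and those of all probe sets 0.06, 0.05 and 0.08. Over the 3 pairs the members' median was 0.088 without the treated A100 array and 0.64 without the treated B100 array. Scaling to a common median moved the medians of all probe sets by -0.16, -0.17 and -0.14 and left the members at 0.27, 0.28 and 0.02. For the difference between the doses the members' median was 0.65 without the treated B100 array and -0.16 without the treated A100 array. At 100 µg/ml it was 0.91 without the treated B100 array and 0.000333 without the treated A100 array, each leaving 1 treated array. The positive 100 µg/ml median thus came from the treated A100 array. Against all 3 controls as 1 group the 100 µg/ml median was -0.042.

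The members with the highest mean over the pairs were NOP58 (0.99), NSR1 (0.94), FCF2 (0.93), DBP3 (0.91) and DBP2 (0.91), and none of these passed (limma adjusted p = 0.585 for NOP58, FCF2, DBP3 and DBP2 and 0.689 for NSR1). NOP58, NSR1 and DBP2 were at 2.63, 3.39 and 2.28 in the A100 pair, and between 0.015 and 0.33 in the B100 pair. In the pair labelled 10, NSR1 was at -0.59 while NOP58 and DBP2 were at 0.17 and 0.11. FCF2, which acts in early cleavage, and DBP3, a helicase, had large values in the pair labelled 10 too, at 1.33 and 1.63. FCF2 had 163.3 and 60.1 on the treated and control A100 arrays, 72.8 and 60.1 on those labelled B100, and 424.9 and 159.1 on those labelled 10. DBP3 had 113.7 and 29.1 on the treated and control A100 arrays, 26.5 and 40.5 on those labelled B100, and 334.1 and 97.3 on those labelled 10. FCF2 was thus higher in all 3 pairs, DBP3 in 2 of them. UTP20, a large scaffold of the processome, had 181.2 and 54.7 on the treated and control arrays labelled 10, a difference of 1.48, on a probe set of the type (suffix _s) that can detect more than 1 transcript. Its probe set without a suffix gave 128.6 and 99.5, and there the unadjusted p was 0.481 at 10 µg/ml and 0.866 for the difference between the doses, against 0.0171 and 0.0382 on the probe set used. By label, UTP20 passed on the probe set without a suffix (-1.32, limma adjusted p = 0.0265) and not on the one used (-1.15, adjusted p = 0.106). Its other probe sets above the filter, also of the _s type, were at -0.64 and -0.64 by label. They gave 92.8 and 31.3, and 61.1 and 47.4, on the treated and control arrays labelled 10.

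The members with the lowest mean over the pairs were NOP53 (-0.42), NOP16 (-0.17), RRP12 (-0.11), EBP2 (-0.077) and UTP8 (-0.073), none of which passed. NOP53, which recruits the exosome to the large subunit precursor, had 6.4 and 32.7 on the treated and control A100 arrays, 25.4 and 27.5 on those labelled B100, and 64.8 and 68.3 on those labelled 10. NOP16 had 221.1 and 160.4 on the treated and control A100 arrays, 194.1 and 228.4 on those labelled B100, and 481.9 and 805.1 on those labelled 10. EBP2 had 86.6 and 58.2 on the treated and control A100 arrays, 54.4 and 92.6 on those labelled B100, and 254.7 and 269 on those labelled 10. UTP8 had 86.3 and 46.7 on the treated and control A100 arrays, 20.9 and 56 on those labelled B100, and 131.6 and 127.6 on those labelled 10. NOP16, EBP2 and UTP8 thus had a higher treated signal in the A100 pair and a lower one in the B100 pair. Of the 4 members tested that lay below 0 in the A100 pair, 3 (RRP12, NOP53 and NIP7) lie in the range of clustered low values and the other is UTP22. The 4 other members in that range were above 0 in the A100 pair, NOP58 at 2.63, NOG1 at 1.68, NOP4 at 0.79 and RRP9 at 0.56.

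Other lists of the pathway were tested by label in the same fit, where 4.53% of all probe sets were lower. Of 36 other small subunit factors tested, 10 passed and all were negative, with a median of -0.93. Among them KRR1, a processome protein, had 109.1 and 4.8 on the treated A100 and B100 arrays and 3.6 and 3.8 on their controls, against 196.1 and 177.2 on the treated and control arrays labelled 10. As in NSR1, 3 of the A100 and B100 arrays were near zero and the treated A100 array lay between them and the arrays labelled 10, but KRR1 did not pass (-2.67, adjusted p = 0.0553), while the helicase PRP43 did (-1.81, adjusted p = 0.0137). Of 37 other large subunit factors 17 passed, with a median of -1.13, among them RPF2 (-2.86, adjusted p = 0.0157), which brings the 5S particle, and the export factor ARX1 (-2.44, adjusted p = 0.0169). Of 14 exosome genes 2 passed (median -0.66, the subunits MTR3 at -1.51 and CSL4 at -1.35). Of 11 genes of RNA polymerase I and its factors 2 passed, RPA135 (-2.25) and RPA34 (-1.75), with a median of -0.24. Of 14 genes of RNA polymerase III and its repressor 1 passed, RPC37 at -1.18 (median of the list -0.68). Of 18 regulators of these genes 0 passed by limma, and 3 were lower at an unadjusted p under 0.05, where 14.7% of all probe sets were (median -0.23). TOD6, a repressor of biogenesis genes, and RAS1 had the largest regulator values at -0.99 and -0.96.

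Ribosomal protein genes and stress genes are set beside the members because they are known to move with and against them. Of 137 ribosomal protein genes listed, 80 had a probe set annotated with that symbol alone and were tested, and the values do not cover the rest. Many of the 80 ribosomal protein genes tested have a near-identical copy that the probes may share. By label 6 were lower, against 4.53% of all probe sets, and the median of the 80 genes was -0.93. Their median log2 signal was 11.88 and 10.24 on the treated A100 and B100 arrays and 9.76 and 9.95 on their controls, against 11.53 and 11.41 on the treated and control arrays labelled 10. On the treated A100 array the ribosomal protein genes thus had a median above that of the arrays labelled 10, where the biogenesis factors lay between the arrays of both label numbers. At 76 of the 80 the treated A100 array was above the other 3, against 41 of the 51 members and 39.8% of all probe sets. It was also below both arrays labelled 10 at 13 of the 80, against 32 of the 51 members and 9.43% of all probe sets. All 4 A100 and B100 arrays lay below both at 17 of the 80, and only there could that order arise. Of 30 stress genes of slow growth 18 were higher by label and 0 lower, against 4.84% and 4.53% of all probe sets. The median of the 30 genes was 1.07. The chaperone SSA4 was at 4.15, the catalase CTT1 at 2.44 and the mitochondrial chaperone HSP78 at 2.44 (limma adjusted p = 0.00126, 0.0135 and 0.00348). Their median log2 signal was 12.27 and 12.52 on the treated A100 and B100 arrays and 12.65 and 12.72 on their controls, against 11.15 and 11.15 on the treated and control arrays labelled 10. In the A100 pair 1 of the 30 stress genes was higher on the treated array (median -0.31), against 51.6% of all probe sets, and in the B100 pair 6 were (median -0.22), against 56.7%. The difference between the lists was not tested.

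**Figure D5:**
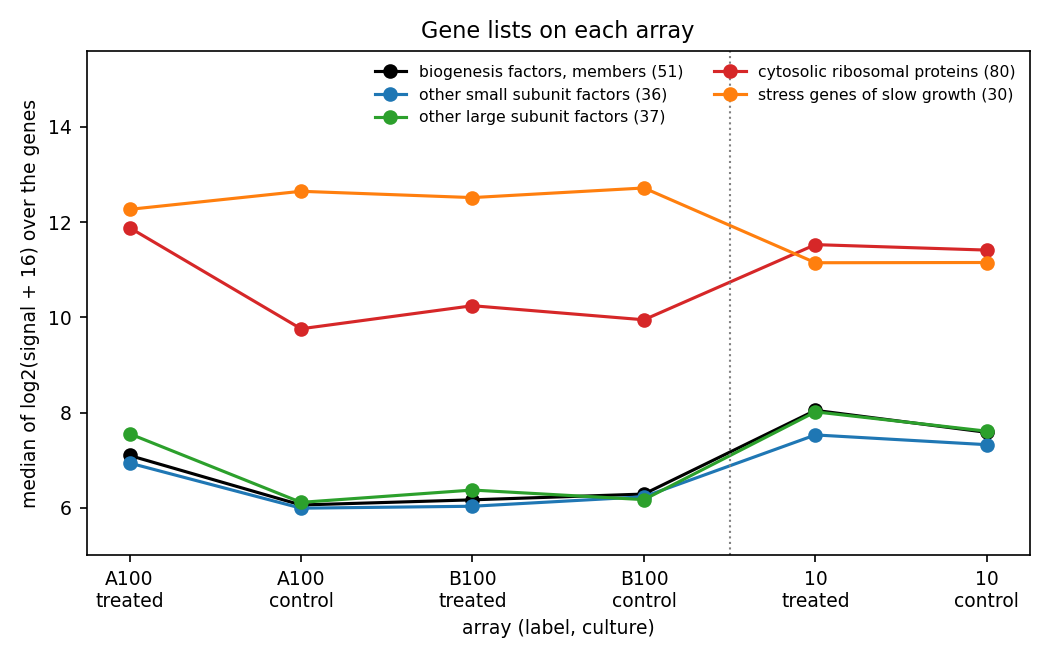
Median of log2(signal + 16) over the genes tested of 5 lists (vertical axis) on each array (horizontal axis, treated left of control within each label). The values are to be compared along a line and not between lines. Biogenesis lists are lowest on 3 of the A100 and B100 arrays, intermediate on the treated A100 array and highest on the 2 arrays labelled 10, the ribosomal protein line peaks at 11.88 on the treated A100 array, and the stress line is lower on the arrays labelled 10.

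On the chromosomes no 2 members are immediate neighbours in the order of protein-coding genes of the RefSeq R64 assembly. Of the 59, 10 (16.9%) stand beside a member or a gene of the lists of other assembly factors, exosome or RNA polymerases I and III, as do 369 (6.13%) of 6021 protein-coding genes. The pairs include NSR1 with the exosome gene MTR3 and DBP8 with the export adaptor NMD3.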

How the data were processed

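Transcript levels were measured on 6 one-colour Affymetrix arrays. The deposited values are intensity values, with MAS5 named as the tool per the submitters' processing notes, and its version is not known here. They were not scaled again. Of 9335 probe sets, 60 manufacturer controls were left out, then the 25% with the lowest mean log2 value, which left 6956. The platform annotation gave 1 symbol to 5670 of these, several to 282 and none to 1004.

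Analysis used log2(signal + 16), so low signals have understated fold changes. The package limma 3.58.1 in R 4.3.3 gave moderated two-sided tests with a variance trend and Benjamini-Hochberg adjustment over all 6956 (threshold 0.05). The label comparison had 1 mean per label number and no treatment term (4 residual degrees of freedom). The test over the pairs had the label number as a term (3), and each dose was set against its own controls in a fit of 4 group means (2), where lone arrays are assumed to vary like the others. The fits were tested on simulated data, with independent noise of the same spread for all probe sets and arrays. That test checked the size of the recovered differences and held no array that stood apart, so it does not bear on such an array. Precision is limited by how few arrays there are.

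The members and lists were chosen with earlier results of these data known. Values on every array were to be given for the 12 largest and 6 smallest label differences, the 5 highest and 5 lowest pair means and the brightest gene of each role, and up to 3 genes of each other list by label difference. NOP1, NOP56, NOP14 and other members named for completeness, and RPC37, fall outside that rule and were named after their values were seen. Promoter sequences were not used here. Alternatives were other scalings, pseudocounts, filters and models, a replicate block and leaving out each array. The letters A and B were not taken as pairs in the tests, because the difference between the A100 and B100 arrays had r = -0.071 between treated and control over all probe sets tested. The treated A100 array, which stood apart from the others, enters that r. The r therefore cannot show whether arrays of the same letter were pairs.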

Additional observations from a re-analysis of the deposited data

Results flagged for a closer look

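Among the 4 arrays labelled A100 or B100, the gap between 1 array and the rest was set against Dixon's 95% critical value (gap to the nearest array over the whole range) for 30 measures, namely the members' median and the members given above with values on every array by rule. It was exceeded in 6 of the 30, and chance flags about 1 in 20 groups. That rate holds for independent measures, whereas these share the same 4 arrays and were chosen in part by their pair differences, so it is no yardstick for the count. In 5 of them the treated A100 array was the high one. These were NSR1 with a ratio of 0.991, NOG1 with 0.956, DBP8 with 0.915, RRP1 with 0.904 and RRP3 with 0.879. In FCF1 the A100 control was the low one, with a ratio of 0.846. These 4 arrays hold treated and control cultures, so an effect of the drug and any other difference of 1 array cannot be told apart.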

How the results depend on the processing

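The label comparison rests on few arrays. The 20 members and 652 probe sets past the threshold became 38 and 1257 at a threshold of 0.10, 11 and 389 with 1 mean for each of the 4 groups, 37 and 1423 with control arrays only and 0 and 0 with treated arrays only. Leaving out the lowest 50% of probe sets left 18 members, of which 7 passed, as did 544 probe sets. Leaving out 1 array in turn gave 1 to 45 members and 31 to 2103 probe sets. With the replicate block 23 members and 547 probe sets passed, 18 of the members among the 20, and 0 members passed in the treatment comparisons. The members' median stayed negative in all alternatives of the label comparison, from -1.59 with a pseudocount of 1 to -0.93 with 64. At 100 µg/ml it was -0.042 against all 3 controls, and leaving out 1 array gave 0 to 21 members and 0 to 1135 probe sets. For the difference between the doses, leaving out 1 array gave medians of -0.16 to 0.65, 0 to 3 members and 0 to 233 probe sets. Over the pairs and at 10 µg/ml it gave 0 to 1 probe sets and 0 members. Leaving out probe sets 7600 to 8500 was an alternative chosen after seeing the data. It left 44 members, of which 15 passed by label, all among the 20, as did 593 probe sets.

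Some genes changed sign. By label, UTP7 was at 0.056 with quantile normalization, 0.057 with median scaling and 0.16 with treated arrays only, and UTP22 at 0.038, at 0.015 and, with control arrays only, at 0.33. Without 1 array UTP7 ranged from -0.18 to 0.14 and UTP22 from -0.38 to 0.25. Over the pairs, leaving out 1 array gave -0.24 to 1.70 for NSR1, -0.38 to 0.10 for NOP16, -0.29 to 0.14 for RRP12, -0.23 to 0.080 for EBP2 and -0.48 to 0.36 for UTP8. The cause was not tested.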
